A study of Homo sapiens with 4 samples.

Results

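The transcripts described here are those of 10 genes that carry a human cell through the G1 phase of the cycle, namely the D cyclins CCND1, CCND2 and CCND3, the E cyclins CCNE1 and CCNE2, the kinases CDK4 and CDK6, the kinase inhibitor CDKN1B, the pocket protein RB1 and the transcription factor E2F1. They were chosen by gene symbol, and every probe set annotated to exactly 1 of these symbols was used, which gave 27 probe sets for these 10 of 18132 genes on the array. All measurements were made in A549, an established human lung adenocarcinoma line, on 4 arrays with 1 array per condition. The cells were left untreated, or were given 25 μmol/L dihydroberberine, 2 μmol/L sunitinib, or both drugs at these doses for 48 h, and the labels name no vehicle for the untreated cells. Dihydroberberine is the hydrogenated derivative of berberine, an alkaloid of Coptis plants, and sunitinib blocks several receptor tyrosine kinases. With 1 array per condition no difference has a replicate check and no test was run, so higher and lower compare single arrays.

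Cyclins of the D type are made in response to growth factors and bind CDK4 or CDK6, and these complexes begin the phosphorylation of the retinoblastoma protein encoded by RB1. Unphosphorylated RB1 protein holds E2F factors inactive. Once it is released, E2F1 drives genes for DNA synthesis together with the E cyclins, which bind CDK2 and complete the phosphorylation. CDKN1B encodes p27, a brake on cyclin E with CDK2, and p27 is controlled largely through its degradation. A549 cells are known for a deletion of CDKN2A, which encodes the CDK4 inhibitor p16, so in this line the brakes on CDK4 and CDK6 lie mainly elsewhere.

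The start regions of E2F1, CDK4 and CCNE1 are shown because the first pair had lower signal with dihydroberberine whether or not sunitinib was present, and CCNE1 did not. CCND3 was also lower in this way, but its windows, which held no E2F match, are not shown. Each is the 250 bases before the transcription start given by RefSeq (GRCh38.p14), written 5′ to 3′ on the gene's strand. Capitals mark the E2F motif (TTTCCCGC, TTTCGCGC, TTTGCCGC or TTTGGCGC) and the SP1 motif (GGGCGG), searched on both strands, and in these windows no E2F match overlapped an SP1 match.
E2F1, chr20:33686386-33686635, minus strand: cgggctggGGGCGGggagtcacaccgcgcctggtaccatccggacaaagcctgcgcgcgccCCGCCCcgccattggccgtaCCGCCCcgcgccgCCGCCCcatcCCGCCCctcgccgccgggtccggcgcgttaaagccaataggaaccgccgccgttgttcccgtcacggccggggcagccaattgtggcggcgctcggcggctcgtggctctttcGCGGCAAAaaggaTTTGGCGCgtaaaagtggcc
CDK4, chr12:57752311-57752560, minus strand: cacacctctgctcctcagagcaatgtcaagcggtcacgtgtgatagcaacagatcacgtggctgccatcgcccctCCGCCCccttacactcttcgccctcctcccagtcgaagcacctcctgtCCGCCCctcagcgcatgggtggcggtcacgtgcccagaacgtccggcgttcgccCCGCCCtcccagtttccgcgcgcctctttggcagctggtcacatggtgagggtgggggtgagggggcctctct
CCNE1, chr19:29811741-29811990, plus strand: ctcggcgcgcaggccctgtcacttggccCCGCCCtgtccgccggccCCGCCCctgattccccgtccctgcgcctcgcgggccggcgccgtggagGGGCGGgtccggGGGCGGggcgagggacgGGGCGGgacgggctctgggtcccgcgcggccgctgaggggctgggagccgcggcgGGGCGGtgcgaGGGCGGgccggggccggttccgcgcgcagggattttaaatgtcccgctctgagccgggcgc

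The E2F1 window held 2 E2F matches, which began 33 and 20 bases before the start and lie on opposite strands, and 5 SP1 matches. The CDK4 window held 3 SP1 matches and the CCNE1 window 7, and neither held an E2F match. The search covered 10 windows for 7 of the genes, with none for CCND1, CCND2 or CCNE2. Windows on the chromosome of CCNE2 were left out for these genes but not for the share over all genes. An E2F match was present in 1 of the 10 against 2.79% of 35116 windows of this length over all genes. An SP1 match was present in 7 of the 10 against 42.6%. The AP-1 motif (TGANTCA, on both strands) occurred once, in a window of RB1 that lies at a start inside the gene, against 6.57% of all windows, and the CRE motif (TGACGTCA) in 0 against 1.65%. A match is a stretch of letters and shows no binding. Only the listed letters before the start were searched, so a window without a match does not mean that a gene lacks a site.

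Signals are given on the log2 scale of the deposited values. A floor of 6.75, the median signal over the gene probe sets, was used, and values under it were raised to it before a difference was taken. It is not a limit of detection, and levels just above it may be background. Of the 27 probe sets 18 lay above the floor on all 4 arrays and 7 under it on all 4. For each gene the probe set with the highest mean was taken as its value, and by this measure 9 of the 10 genes could be compared, CCND2 being the exception. Among the 9 is CCNE2, which passed the floor on 3 arrays. Signals of different probe sets are not comparable in level, so each gene is read only across the 4 arrays.

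The arrays were alike, with a Pearson r between 0.986 and 0.994 over gene probe sets and median signals between 6.73 and 6.76. The array of dihydroberberine alone stood apart in its Alu and 18S rRNA controls. Against untreated it was lower by a log2 difference of -0.41 for the Alu control and -0.63 for the 18S rRNA controls, and higher by 0.45 for background probes with 20 G or C bases. The same 3 differences were 0.03, -0.24 and 0.29 with sunitinib alone and 0.03, -0.21 and 0.25 with both drugs. For the background probes the untreated array was the lowest, at 6.70 against 7.15 with dihydroberberine, 6.99 with sunitinib and 6.95 with both. The excess of the 3′ over the 5′ ACTB control was 0.91 untreated, 0.63 with dihydroberberine, 0.85 with sunitinib and 0.82 with both. The part of these shifts in the results was not tested. Of 6 epithelial markers KRT7, KRT8, KRT18 and KRT19 lay above the floor on every array, whereas EPCAM and CDH1 lay under it on every array. Of 4 measured leukocyte markers PTPRC and CD3E were under the floor on every array, CD14 was above it in untreated cells only and CD68 on all arrays, and the log2 of their summed signal was 9.67, 9.05, 8.28 and 8.04 in the same order. Of 3 endothelial markers VWF alone was above the floor, and of 5 fibroblast markers 4 were under it on every array.

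CCND1, cyclin D1, is the D cyclin most tightly tied to mitogen signalling, and it had the largest range among genes above the floor on every array in this group. Its signal was 10.66 in untreated cells, 10.04 with dihydroberberine, 11.16 with sunitinib and 11.38 with both drugs. The dihydroberberine array was thus the lowest of the 4 and the combination the highest. Against untreated the log2 differences were -0.61 with dihydroberberine, 0.50 with sunitinib and 0.72 with both drugs. All 4 probe sets of CCND1 lay above the floor and had these signs, between -0.77 and -0.21 for dihydroberberine, between 0.26 and 0.50 for sunitinib and between 0.31 and 0.72 for both. Their SDs were 0.24, 0.10 and 0.19 (n = 4 probe sets on the same arrays), a technical spread that holds no error between cultures. Fewer cells in G1 and less RNA per cell cannot be told apart in RNA from whole cultures.

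The combination exceeded dihydroberberine alone by a log2 difference of 1.34 in CCND1, or 2.52-fold, and 71 of the 10958 genes compared were at least as high in that comparison. With values under the floor raised to it, this was the sole difference past 2-fold among the 9 genes. In the same comparison 2.42% of all genes were at least 2-fold higher. The other 3 probe sets of CCND1 gave 0.54, 0.97 and 1.07, and with the mean over its probe sets the difference was 0.98, just under 2-fold. The combination lay 0.22 above sunitinib alone, with 0.02, 0.05 and 0.16 for the other probe sets, where the median SD between probe sets of a gene was 0.09 over all genes. Adding dihydroberberine to sunitinib thus went with a CCND1 signal at most 0.22 higher, whereas without sunitinib the signal was lower by 0.21 or more in every probe set.

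CCND2, cyclin D2, binds the same kinases. Its 3 probe sets read from 4.10 to 5.05, all under the floor, so no fold is given. CCND3, cyclin D3, had 10.34 untreated, 9.85 with dihydroberberine, 10.15 with sunitinib and 10.01 with both by its 1 probe set above the floor. It was highest without drug, and its differences from untreated were -0.49, -0.20 and -0.33. A second probe set of CCND3 read at most 4.37, under the floor, and with both averaged the combination was 0.12 above sunitinib rather than 0.13 below it. Of the D cyclins, CCND1 and CCND3 therefore lay on opposite sides of untreated cells with sunitinib and with both drugs, and on the same side with dihydroberberine.

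**Figure D1:**
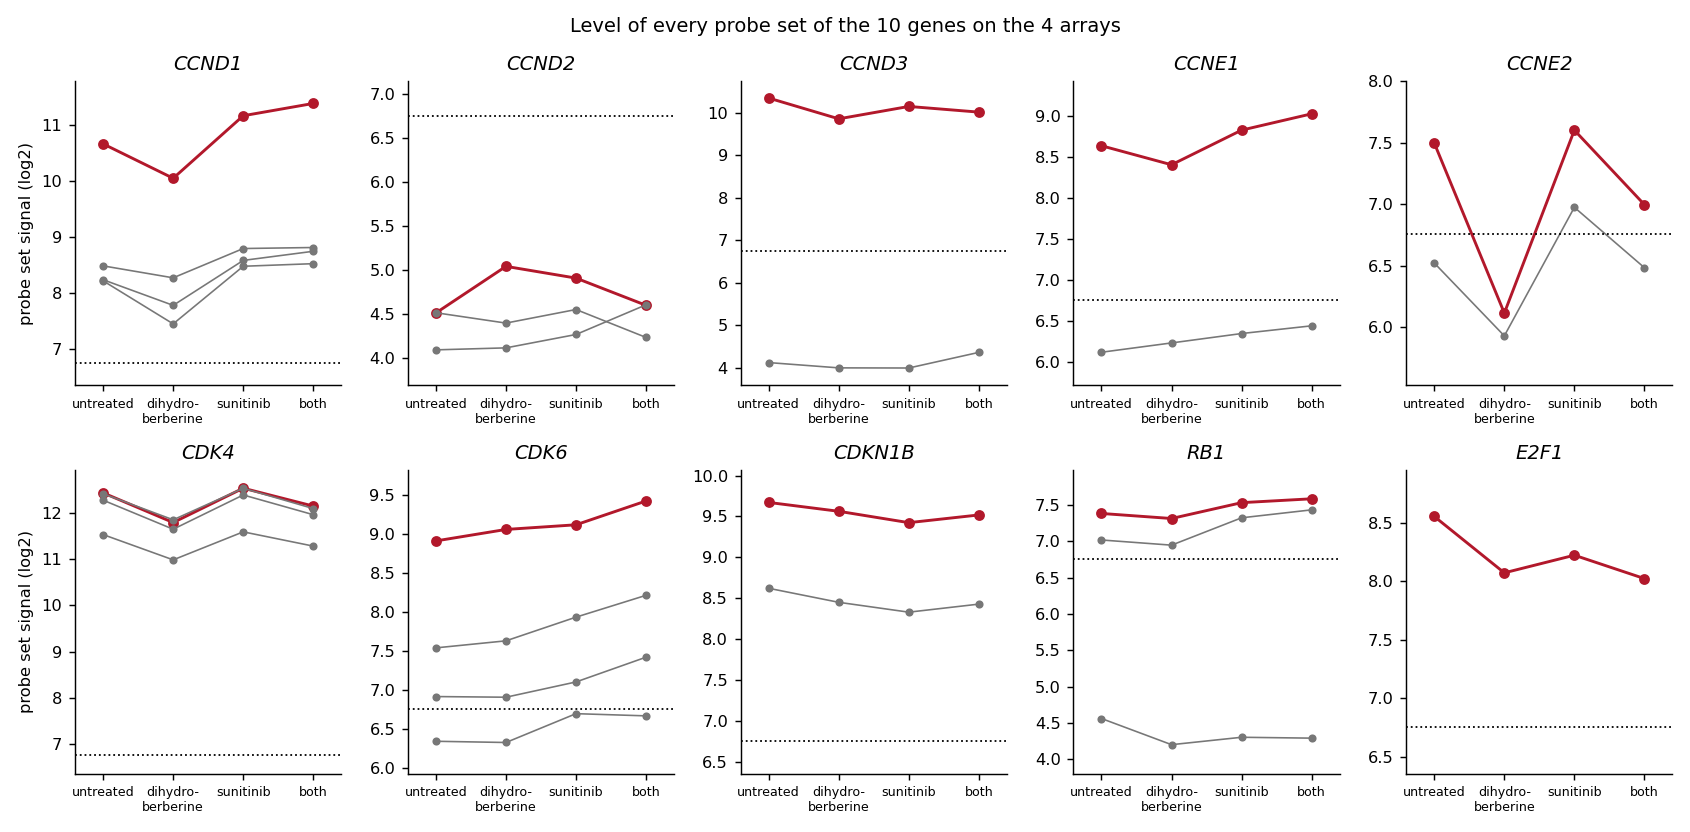
Each panel plots the log2 signal of 1 gene (vertical axis, own scale) on the 4 arrays (horizontal axis), with a line for each probe set, the one of highest mean signal in red, and the floor of 6.75 dotted. CCND1 is lowest with dihydroberberine and highest with both drugs in all 4 of its probe sets, the 4 probe sets of CDK4 run in parallel, and those of CCND2 all lie under the floor.

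The E cyclins, partners of CDK2, had the same sign against untreated with each drug alone and opposite signs with both. CCNE1 had 8.64 untreated, 8.41 with dihydroberberine, 8.83 with sunitinib and 9.03 with both drugs. This is the order seen for CCND1, with smaller steps of -0.23, 0.19 and 0.39 against untreated. The combination was 0.62 above dihydroberberine, and 915 of 10958 genes were at least as high there. The difference rests on 1 probe set whose name marks it as able to match several transcripts, since the other, at 6.12 to 6.44, was under the floor.

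CCNE2, the second E cyclin, was near the floor. Its signal was 7.50 untreated, 6.11 with dihydroberberine, 7.60 with sunitinib and 6.995 with both drugs, so the dihydroberberine array alone fell below 6.75. Dihydroberberine was at least 1.67-fold lower than untreated, and 2.61-fold lower by the values as deposited. In the combination against sunitinib, where both arrays were above the floor, the log2 difference was -0.61, and 119 of 10958 genes were at least as low. A second probe set gave 6.52, 5.93, 6.97 and 6.48, the same order of arrays for the lowest and the highest value, with all but the sunitinib array under the floor. Set beside CCNE1, the 2 genes had opposite signs in the combination against untreated, at 0.39 and -0.50, and against sunitinib, at 0.20 and -0.61, and the same sign in the other 3 comparisons.

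CDK4, the catalytic partner of the D cyclins, was lower with dihydroberberine, and its probe sets gave the tightest readings of the group for that drug among genes with 3 or more. The signal was 12.44 untreated, 11.80 with dihydroberberine, 12.54 with sunitinib and 12.15 with both drugs. Both arrays with dihydroberberine were below both arrays without it. The log2 difference was -0.64 for dihydroberberine against untreated, with 4 probe sets between -0.64 and -0.55 (SD 0.05), and -0.39 for the combination against sunitinib, with 4 between -0.44 and -0.31 (SD 0.06). In these comparisons 1064 and 524 of 10958 genes were at least as low. Sunitinib alone lay 0.10 above untreated, less than the median SD of 0.12 between probe sets of a gene.

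CDK6, the other kinase bound by D cyclins, did not follow CDK4. Its signal was 8.91, 9.06, 9.11 and 9.42 in the same order, lowest untreated and highest with both drugs. The combination was 0.51 above untreated, with 0.50 and 0.67 in the other probe sets above the floor (SD 0.10, n = 3 probe sets), and 954 genes were at least as high. Dihydroberberine alone gave 0.15, -0.01 and 0.09 by these 3 probe sets, which have no common sign. The last probe set of CDK6, between 6.33 and 6.70, was under the floor on every array. With both drugs the 2 kinases therefore stood on opposite sides of untreated cells, CDK4 at -0.29 and CDK6 at 0.51.

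The brakes varied least. CDKN1B had 9.67 untreated, 9.56 with dihydroberberine, 9.42 with sunitinib and 9.52 with both drugs, a range of 0.25. The untreated array was the highest, and the largest difference from it was -0.25, with sunitinib, where the second probe set gave -0.29. Its difference of -0.11 with dihydroberberine turned to 0.02 after quantile normalization. RB1 had 7.38, 7.32, 7.53 and 7.59 in the same order, a range of 0.27, and a second probe set above the floor gave 7.02, 6.95, 7.32 and 7.43. Both probe sets placed RB1 highest with both drugs and lowest with dihydroberberine, and the combination exceeded dihydroberberine by 0.27 and 0.49. The last probe set of RB1 was under the floor.

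E2F1, the activator released by RB1, was highest in untreated cells. Its single probe set read 8.56 untreated, 8.07 with dihydroberberine, 8.22 with sunitinib and 8.02 with both drugs. All 3 treated arrays lay below the untreated one, by log2 differences of -0.48, -0.33 and -0.53, and 1762, 1529 and 921 of 10958 genes were at least as low. With 1 probe set E2F1 has no spread of its own.

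To see how the group stood in each comparison, the 9 genes were counted beside all 10958. With dihydroberberine against untreated 8 of the 9 were lower, beside 52.3% of all genes, and CDK6 was higher, with a median of -0.48 against -0.02 over all genes. None of the 9 was past 2-fold there once values under the floor were raised to it. CCNE2 is a bound in this comparison, 2.61-fold lower by the values as deposited. Past 2-fold, 0.849% of all genes were higher and 3.08% lower (93 and 338 genes, or 122 and 249 after quantile normalization). With sunitinib 6 were higher, beside 42.8% of all genes, and CCND3, CDKN1B and E2F1 lower, at a median of 0.10 against -0.03, with 0 past 2-fold beside 0.128% higher and 0.429% lower. With both drugs 4 were higher, CCND1, CCNE1, CDK6 and RB1, and 5 lower, beside 45.5% and 51.4% of all genes, at a median of -0.15 against -0.01, with 0 past 2-fold beside 0.885% and 1.33%. These 3 comparisons share the untreated array. At 1.5-fold CCND1, CCNE2 and CDK4 were lower with dihydroberberine, where 11.7% of all genes were lower and 4.1% higher. None of the 9 was past 1.5-fold with sunitinib, beside 1.1% of all genes higher and 3.39% lower. With both drugs CCND1 was higher at this size, beside 6.26% higher and 6.66% lower.

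In the combination against sunitinib 5 of the 9 genes were higher and 4 lower, CCND3, CCNE2, CDK4 and E2F1, beside 49.4% and 47.7% of all genes, with a median of 0.05 against 0.00 over all genes. At 2-fold 0 were past the size in either direction, beside 0.584% higher and 0.0821% lower, and at 1.5-fold CCNE2 was lower, beside 1.28% lower and 3.23% higher. In the combination against dihydroberberine 7 were higher, beside 48.3% of all genes, and CDKN1B and E2F1 lower by -0.04 and -0.05. The median there was 0.27 against 0.00 over all genes. Besides CCND1, past 2-fold where 2.42% of all genes were higher and 0.365% lower, CCNE1 was higher past 1.5-fold, where 9.46% of all genes were higher and 2.34% lower.

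**Figure D2:**
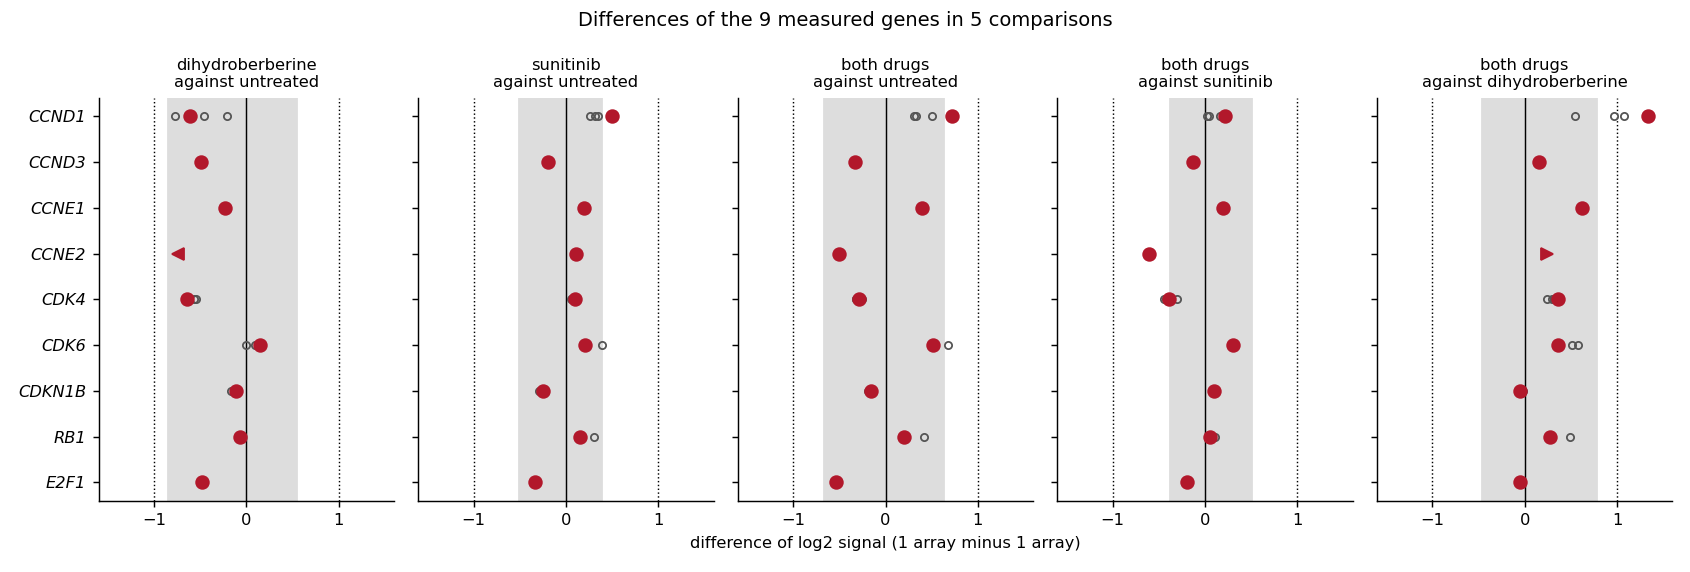
Each panel plots, for 1 comparison, the difference of log2 signal between 2 single arrays (horizontal axis) for the 9 genes (rows), with the probe set of highest mean signal in red, other probe sets above the floor as open circles, a triangle where 1 array was under the floor and the value is a bound, 2-fold dotted, and the 5th to 95th percentile of all 10958 genes shaded. CCND1 lies at -0.61, 0.50, 0.72, 0.22 and 1.34 from left to right, and CDK4 lies left of 0 in the 3 panels that add dihydroberberine, alone or with sunitinib.

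For each drug there were 2 contrasts without a shared array, the drug alone against untreated and the combination against the other drug. For dihydroberberine 5 of the 9 genes had the same sign in both pairs, against 59.5% of all genes. CCND3, CCNE2, CDK4 and E2F1 were lower in both and CDK6 higher in both, the last with no common sign among its probe sets in the first pair. CCND1 and CCNE1 were lower alone, at -0.61 and -0.23, and higher in the presence of sunitinib, at 0.22 and 0.20. CDKN1B and RB1 also had opposite signs, with no difference over 0.11 in size. For sunitinib 8 of 9 had the same sign in both pairs, against 56.0% of all genes. CCND1 was higher by 0.50 and 1.34, CCNE1 by 0.19 and 0.62, CDK6 by 0.21 and 0.36, CDK4 by 0.10 and 0.36, and RB1 by 0.15 and 0.27. CCNE2 was higher by 0.10 and by at least 0.24. CDKN1B and E2F1 were lower in both, and CCND3 was lower by -0.20 alone and higher by 0.16 in the presence of dihydroberberine. The second pair for sunitinib rests on the dihydroberberine array, whose control probes stood apart.

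If the log2 effects of the drugs simply added, the 2 pairs would give the same value. The combination was above the sum in all 9 genes, by 0.83 in CCND1, 0.43 in CCNE1, 0.36 in CCND3, 0.28 in E2F1, 0.26 in CDK4 and between 0.12 and 0.20 in CDK6, CDKN1B and RB1. For CCNE2 it was at least 0.14, since its dihydroberberine array was under the floor, and 0.78 by the values as deposited, second to CCND1. Over all genes 57.0% were above it, with a median of 0.06, and the median of the 9 genes was 0.26. All 4 probe sets of CCND1 were above the sum, between 0.23 and 0.83 (SD 0.28), and 564 of 10958 genes were at least as high. The sign held for CDK4 in 4 probe sets, for CDK6 in 3 and for CDKN1B and RB1 in 2. After quantile normalization all 9 values were lower, at 0.67 in CCND1, 0.28 in CCNE1, 0.20 in CCND3, 0.17 in CDK4 and 0.15 in E2F1. CCNE2 was then at 0.12, RB1 at 0.07, CDKN1B at 0.04 and CDK6 at -0.01. With the mean of its probe sets CCNE2 was at -0.28, so the signs for CDK6 and CCNE2 depend on the processing. The dihydroberberine array, whose control probes stood apart, enters each of these values, and its part in them was not tested.

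**Figure D3:**
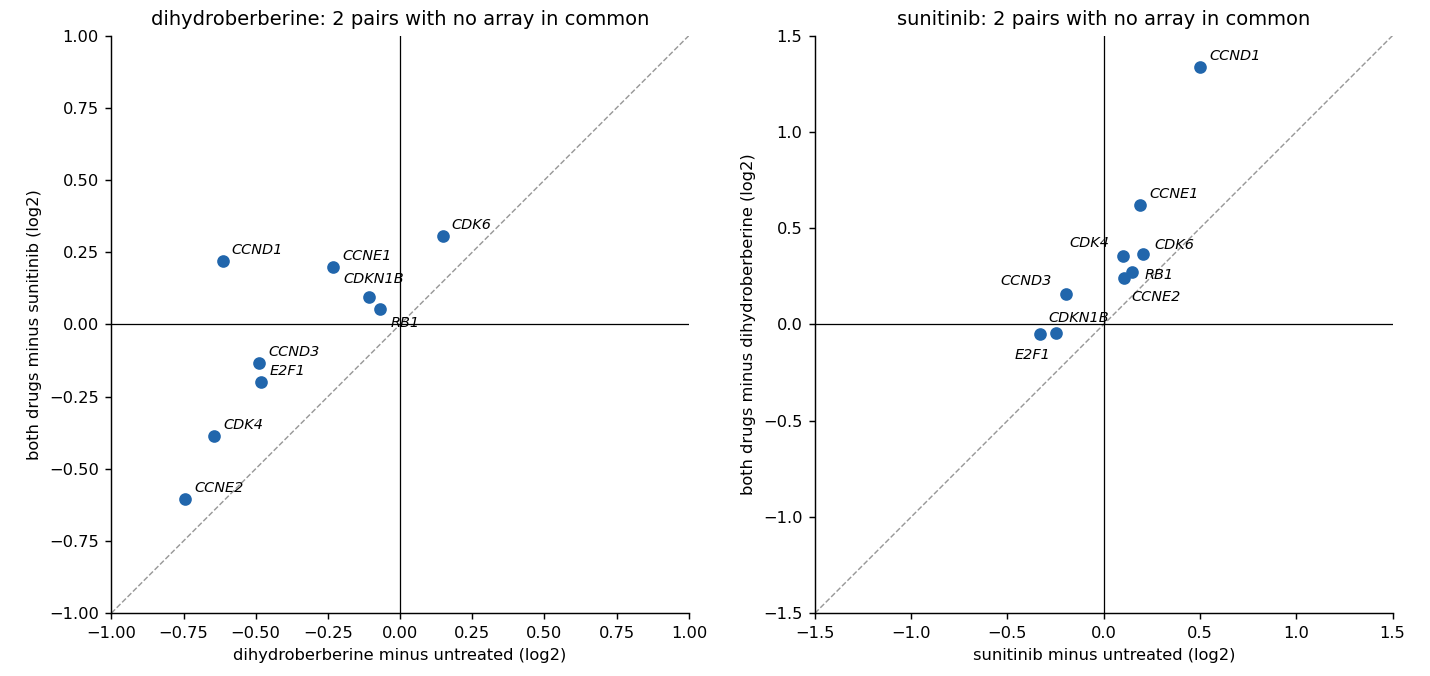
The left panel plots the difference of dihydroberberine from untreated (horizontal) against that of both drugs from sunitinib (vertical), and the right panel that of sunitinib from untreated against that of both drugs from dihydroberberine, all in log2 signal, with a point for each of the 9 genes and a dashed line where the values are equal. All 9 points lie above the line in both panels, CCND1 farthest from it by 0.83, and CCND1 and CCNE1 lie left of 0 and above 0 in the left panel.

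The other genes that act on this step were taken as 6 lists. Of 6 further CDK inhibitors 5 were analysed and 3 passed the floor, CDKN1A, CDKN2A and CDKN2D, the last 2 named after their values were seen. CDKN1A, which encodes p21, had 10.27 untreated, 10.88 with dihydroberberine, 10.54 with sunitinib and 11.34 with both drugs. It was highest with both drugs, 2.10-fold above untreated, in the 2 probe sets alike in sign, and was the 1 gene of the list past 2-fold. CDKN2A lay between 6.64 and 6.84, at the floor. CDKN2D, which encodes the CDK4 inhibitor p19, was lower by -0.91 with dihydroberberine, -0.51 with sunitinib and at least -0.97 with both. The inhibitors thus differed in direction, p21 being higher and p19 lower on every treated array.

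Of 11 E2F, DP and pocket proteins 10 were compared, and with dihydroberberine 7 were lower and 3 higher, at a median of -0.35. E2F3, an activating E2F, was 2.15-fold lower with dihydroberberine and 0.01 above untreated with both drugs on the log2 scale, with 3 probe sets of the same sign in each. Its levels of 9.15, 8.04, 9.09 and 9.16 set the dihydroberberine array apart from the other three. With the mean of its probe sets the difference with dihydroberberine was -0.87, under 2-fold. With sunitinib and with both drugs the medians of this list were -0.10 and 0.00.

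Of 10 genes for CDK2, cyclin A2 and the activation of CDKs, 0 were past 2-fold in any comparison, and the medians were -0.27, -0.07 and -0.29 with dihydroberberine, sunitinib and both drugs. CDC25A, a phosphatase that activates CDK2, had the largest difference, -0.90 with dihydroberberine, followed by WEE1, a kinase that inhibits CDKs, at -0.84. With both drugs these were -0.30 and -0.34. The 13 genes listed for the turnover of G1 cyclins and of p27 had medians of -0.14, 0.00 and 0.16. SKP2, the ubiquitin ligase subunit that targets p27, was 2.35-fold lower with dihydroberberine (8.70 untreated and 7.47 with the drug) and at 8.38 with sunitinib and 8.04 with both. GSK3B, a kinase that marks cyclin D1 for degradation, was 2.06-fold lower with dihydroberberine and 3.14-fold higher with both drugs than with dihydroberberine, the latter with opposite signs in its 2 probe sets. With probe sets averaged, SKP2 and GSK3B were -0.92 and -0.53 from untreated with dihydroberberine, under 2-fold.

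Of 20 listed mitogenic inputs to cyclin D1 the 16 analysed here had medians of -0.13, -0.12 and -0.01. JUN and FOSL1, AP-1 subunits, were 3.27-fold and 5.49-fold higher with dihydroberberine, the array where CCND1 was lowest. With both drugs, where CCND1 was highest, they were 1.44-fold and 2.89-fold above untreated. EGR1, an immediate early transcription factor named after its values were seen, read 6.68 untreated and 11.62 with dihydroberberine, at least 29.1-fold higher, and 8.20 with both drugs, at least 2.73-fold above untreated. With sunitinib EGR1 was under the floor, and its 6 probe sets include none above the floor on every array. With the mean of its probe sets EGR1 was at the floor with both drugs, and FOSL1 was 0.94 above untreated on the log2 scale. These 3 genes were those of the list higher past 2-fold with dihydroberberine, beside 0.849% of all genes, and FOSL1 and EGR1 those with both drugs, beside 0.885%. With sunitinib JUN was -0.13 and FOSL1 0.39 from untreated on the log2 scale, while CCND1 was 0.50 above it. The order of the arrays for these transcripts was not that of CCND1, and a link between them and CCND1 was not tested.

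Among the 21 analysed E2F targets of S phase entry 19 were lower with dihydroberberine, 17 with sunitinib and 20 with both drugs, at medians of -0.59, -0.22 and -0.62. Over all genes 52.3%, 54.4% and 51.4% were lower in these comparisons, at medians of -0.02, -0.03 and -0.01. In the combination against sunitinib all 21 were lower, beside 47.7% of all genes, with a median of -0.47 against 0.00 over all genes. At 2-fold 1 was lower with dihydroberberine, FEN1, the flap endonuclease, by 2.75-fold, beside 3.08% of all genes. With both drugs 4 were, beside 1.33%, namely the helicase subunits MCM2 and MCM4 by 2.14-fold and 2.04-fold, the origin licensing factor CDT1 by 2.45-fold and the thymidine kinase TK1 by 2.45-fold. All their probe sets above the floor had the same sign in these comparisons. On the combination array CCND1, CCNE1, CDK6 and RB1 were at their highest, as was the inhibitor CDKN1A. E2F1 and 20 of the 21 E2F targets were below untreated there.

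**Figure D4:**
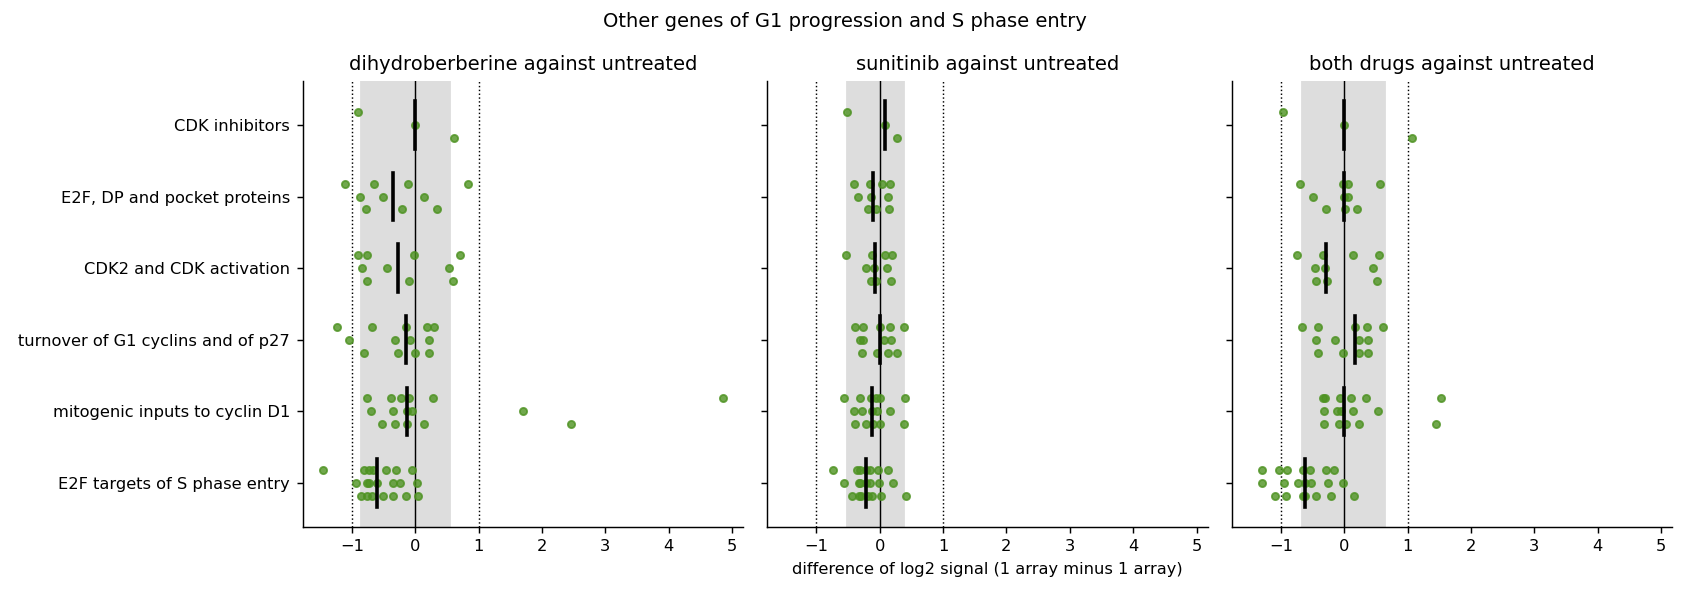
Each point is 1 gene of the list named at the left, placed by its difference of log2 signal from untreated (horizontal axis) with dihydroberberine, sunitinib or both drugs, with the median of the list as a black bar, 2-fold dotted and the 5th to 95th percentile of all 10958 genes shaded. Most E2F targets lie left of 0 in each panel, at medians of -0.59, -0.22 and -0.62, and EGR1, at 4.86 as a bound, lies farthest right with dihydroberberine.

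The genes most like CCND1 in pattern were sought by the Euclidean distance between log2 profiles centred on their own mean, over 4 arrays and 9831 genes above the floor on all of them. The nearest were CUL5, a cullin scaffold, at 0.07, TPRG1L at 0.09 and SNX13, a sorting nexin, at 0.09. CUL5 read 9.05 untreated, 8.45 with dihydroberberine, 9.50 with sunitinib and 9.71 with both. The nearest to CCNE2, the other gene with a range over 1, were MSX2, a homeobox factor, at 0.17, FZD1, a receptor for WNT proteins, at 0.19 and NCOA5 at 0.19. MSX2 read 10.63, 9.30, 10.96 and 10.19 in the same order, with the dihydroberberine array lowest. With 4 points, profiles this close are a description of these arrays only.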

How the data were processed

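RNA from 4 A549 cultures was measured on 1 array each. A TRIZOL extraction and a biotin labelling kit for GeneChip arrays are named per the labels' protocols. The series' design text speaks of Agilent and the label field of Cy3, but the probe set names are those of an Affymetrix array. The deposited values are log2 probe set signals, a scale taken from their range of 3.01 to 15.4. The submitters' processing notes list Affymetrix Expression Console. The sources used here give neither its version nor how probe sets were summarized and arrays scaled.

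Of 49293 gene probe sets 44988 had 1 gene symbol in the platform annotation, 1832 had several and 2473 were unnamed here. By gene identifier 44961 matched RefSeq (GRCh38.p14), and 0 symbols were updated. The probe set of highest mean signal stood for a gene, values under the median of gene probe sets were raised to it, and 10958 genes with 1 array or more at or above it were compared. With 1 array per group the number of arrays limits the precision, and differences were counted at 2-fold. The spread given is that between probe sets of 1 gene, with a median SD of 0.12 in the 3 comparisons against untreated over 5563 genes. Steps were tested on simulated data. Python 3.11.15, pandas 2.3.3 and NumPy 2.4.6 were used.

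The members and lists were chosen with earlier results of these data known. Named genes were all members, list genes past 2-fold in any comparison with no array under the floor, otherwise the 2 of largest difference, and the 3 nearest profiles of members with a range over 1. CDKN2A, CDKN2D, EGR1, E2F5 and the subunits of the CDK-activating kinase were named after their values were seen. Alternatives were the mean of all probe sets, a floor at the 75th percentile or none, quantile normalization, no probe sets ending in _s_at or _x_at, and 1.5-fold.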

Additional observations from a re-analysis of the deposited data

Results flagged for a closer look

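For 3 genes the differences with a drug alone and in the presence of the other had opposite signs, both over a median SD. That SD is the one between probe sets of a gene in the same pair. The differences are by the probe set of highest mean, without quantile normalization. CDKN1B and RB1 also had opposite signs with dihydroberberine, but their differences with it alone, -0.11 and -0.07, were under that SD of 0.12. The difference between the pairs was not tested, since each condition has 1 array. For CCND1 the difference with dihydroberberine was -0.61 alone and 0.22 in the presence of sunitinib, 0.83 apart on the log2 scale. Its other probe sets gave 0.02, 0.05 and 0.16 in the presence of sunitinib, where that median SD was 0.09. For CCNE1 the differences with dihydroberberine were -0.23 and 0.20, which is 0.43 apart. After quantile normalization the first was -0.119, under the median SD of 0.122, and with probe sets averaged it was -0.06. For CCND3 the difference with sunitinib was -0.20 alone and 0.16 in the presence of dihydroberberine, 0.36 apart. After quantile normalization these were -0.10 and 0.10, each under the median SD of 0.12. All 3 contrasts use the dihydroberberine array, whose Alu and 18S rRNA controls were -0.41 and -0.63 from untreated, and the part of this in the values was not tested.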

How the results depend on the processing

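No paired analysis was possible because each condition holds 1 array. With no floor, and with the floor as a filter only (an alternative chosen after seeing the data), 1 member, CCNE2, was past 2-fold with dihydroberberine against untreated in place of 0. With the mean of all probe sets 0 members were past 2-fold in the combination against dihydroberberine in place of 1, CCND1. At 1.5-fold 3 members were past it with dihydroberberine, 1 with both drugs against untreated, 1 with both against sunitinib and 2 with both against dihydroberberine, and 0 with sunitinib. The other counts of members were the same. Of 294 member values recomputed 34 moved by more than the median SD between probe sets and 4 turned sign, CDKN1B with dihydroberberine (0.02) and the CDK6 deviation from additivity (-0.01) after quantile normalization, and CCND3 in the combination against sunitinib (0.12) and the CCNE2 deviation (-0.28) with the mean of all probe sets. CCND1 kept its sign in every comparison under each alternative. Under the 75th percentile floor 6 members could be compared. Without the _s_at and _x_at probe sets CCNE1 could not be compared, and the values of the other 8 moved by less than the spread.

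Over all genes, the counts at 2-fold with dihydroberberine were 93 higher and 338 lower, then 68 and 141 when probe sets were averaged, and 53 and 146 under the 75th percentile floor. With both drugs against untreated they were 97 and 146, then 45 and 97, and 39 and 85, and with both against dihydroberberine 265 and 40, then 76 and 28, and 93 and 23. With both against sunitinib they were 64 and 9, then 36 and 4, and 31 and 6, and with sunitinib 14 and 47, then 11 and 29, and 8 and 26. With no floor sunitinib gave 26 higher, and 23 with the floor as a filter only, and both against sunitinib gave 14 lower with no floor. Of 180 list medians 24 turned sign, 0 of them for the E2F targets in the comparisons against untreated or against sunitinib. The E2F target median in the combination against dihydroberberine, -0.16, was 0.00 when probe sets were averaged and 0.03 under the 75th percentile floor. Of 585 values of the named list genes 79 moved by more than the median SD between probe sets and 5 turned sign, none of them from past 2-fold. Of their 20 differences past 2-fold, 13 were under it by at least 1 alternative: 10 with the mean of all probe sets, 10 under the 75th percentile floor, which leaves some as bounds, 5 without the _s_at and _x_at probe sets and 3 after quantile normalization. Those after quantile normalization were E2F3 (-0.99) and GSK3B (-0.91) with dihydroberberine and MCM4 (-0.97) with both drugs, and CDKN1A with both was 0.99 without the _s_at and _x_at probe sets. Levels near the floor, as for CCNE2, limit what can be read.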

Other observations

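The 3 subunits of the CDK-activating kinase, which phosphorylates CDK2, CDK4 and CDK6, were singled out after their values were seen. CDK7, its catalytic subunit, read 10.44 untreated, 11.03 with dihydroberberine, 10.53 with sunitinib and 10.90 with both drugs. CCNH, its cyclin, read 10.54, 11.08, 10.73 and 11.08, and MNAT1, its assembly factor, 9.18, 9.89, 9.36 and 9.70, in the same order. In each gene both arrays with dihydroberberine were above both arrays without it, the reverse of CDK4. The log2 differences were 0.59, 0.54 and 0.71 with dihydroberberine alone and 0.37, 0.35 and 0.34 in the combination against sunitinib, all under 2-fold and each from 1 probe set above the floor. E2F5, an E2F of the repressor class that was also singled out after its values were seen, was higher by 0.83 and 0.53 in these pairs. Of the 10 compared genes of its list 7 were lower with dihydroberberine alone and 5 in the combination against sunitinib.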
